A study of Homo sapiens with 6 samples.

Results

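The genes described are 10 kinases that drive and control mitosis, CDK1, PLK1, PLK4, AURKA, AURKB, BUB1, BUB1B, TTK, NEK2 and MELK, taken from the count table by symbol. All 10 were among its 21173 genes, and all 10 passed the filter on low counts that left 14431 genes for testing. They were followed in TPC1, a cell line from a human papillary carcinoma of the thyroid that carries a RET fusion. One group of 3 libraries, with the genotype label TFCP2L1 OE, came from cells made to overexpress TFCP2L1, a DNA-binding protein related to grainyhead. The other 3 libraries came from vector cells, with the genotype label WT. Both groups share the TPC1 background. The labels do not say how TFCP2L1 was delivered, whether cells were a clone or a pool, or whether replicates came from separate cultures. The p-values therefore speak only of sample-to-sample spread, part or all of which could be technical.

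Mitosis is run by protein kinases that switch on in order and are then silenced or destroyed. CDK1 with its cyclins starts it, the polo-like kinases and Aurora kinases build centrosomes and the spindle and correct the attachment of chromosomes, and TTK, BUB1 and the BUB1B product BubR1 hold anaphase back until every chromosome is attached. Most of their transcripts accumulate from S phase to mitosis under the MuvB complex, MYBL2 and FOXM1, so their level in a bulk culture follows both the share of cycling cells and the transcript per cell. These cannot be told apart in bulk RNA.

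Library totals were 38213520 to 38987434 reads in TFCP2L1 cells and 37928516 to 38249193 reads in vector cells. TFCP2L1 itself had 13578, 13885 and 12333 reads in the TFCP2L1 libraries, against 0, 0 and 1 read in the vector libraries (edgeR adjusted p = 3.97e-17). Mitochondrially encoded genes took 5.19%, 5.8% and 7.59% of reads in the TFCP2L1 libraries and 5.14%, 6.72% and 5.13% in the vector libraries, so TFCP2L1 replicate 3 and vector replicate 2 stood highest in their groups. Of 8 markers of thyroid follicular cells, 5 were in the table. PAX8, a lineage factor, averaged 477.5 CPM in TFCP2L1 cells and 544 CPM in vector cells (CPM: counts relative to the TMM-adjusted library total), while TG, the hormone precursor, was near 1.03 and 1.10 CPM. Of the epithelial markers KRT18 averaged 156 and 165 CPM in TFCP2L1 and vector cells, while CDH1 had 0 reads in all 3 TFCP2L1 libraries and 1, 0 and 0 in the vector libraries. Of the leukocyte markers, PTPRC had 0, 3 and 0 reads in the TFCP2L1 libraries and 7, 1 and 0 in the vector libraries. The summed leukocyte markers, 96.1 to 122 CPM in TFCP2L1 libraries and 63.8 to 75.8 CPM in vector libraries, were almost all CD68, a lysosomal protein gene. Of the 5 leukocyte markers, 3 were in the table and only CD68 was tested. CD68 was called higher, as were 4.63% of all tested genes. Fibroblast markers summed to 4.21 to 4.51 CPM in TFCP2L1 libraries and 4.74 to 5.71 CPM in vector libraries, and parafollicular markers to at most 0.974 and 0.717 CPM. DCN, CALCA and CHGA were not in the table, so these sums lack them. The part of CD68 in the results was not tested.

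Mitotic kinase transcripts were modestly more abundant in TFCP2L1 cells. Of the 10 kinases, 6 rose (PLK1, BUB1, BUB1B, TTK, AURKA and PLK4), 0 fell, and 4 (NEK2, CDK1, MELK and AURKB) were not called at an adjusted p of 0.05 in edgeR's quasi-likelihood test of all 6 libraries. Over all tested genes, 4.63% were called higher and 6.94% lower. All 10 kinases had a positive log2 fold change, from 0.12 for AURKB to 0.50 for PLK1, with a median of 0.31, beside a median of 0.00 over all tested genes. All 3 TFCP2L1 libraries lay above all 3 vector libraries for 8 of the 10, a pattern that 14.4% of tested genes showed. At an unadjusted p under 0.05, 9 kinases were higher and 0 lower, where 11.8% of all tested genes were higher and 13.3% lower. DESeq2 called 6 higher and 0 lower, where it called 5.97% of all genes higher and 7.81% lower. Together the 10 kinases took 0.119%, 0.129% and 0.122% of all reads in the TFCP2L1 libraries, against 0.098%, 0.097% and 0.0964% in the vector libraries. MKI67, the proliferation marker, stood at 757, 891 and 861 CPM in the TFCP2L1 libraries, against 521, 584 and 602.5 CPM in the vector libraries, and its part in the kinase levels was not tested. The summed level of the kinases was 1225 ± 58.7 CPM in TFCP2L1 cells and 981 ± 9.05 CPM in vector cells (SD, n = 3 each), 1.25-fold higher.

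**Figure D1:**
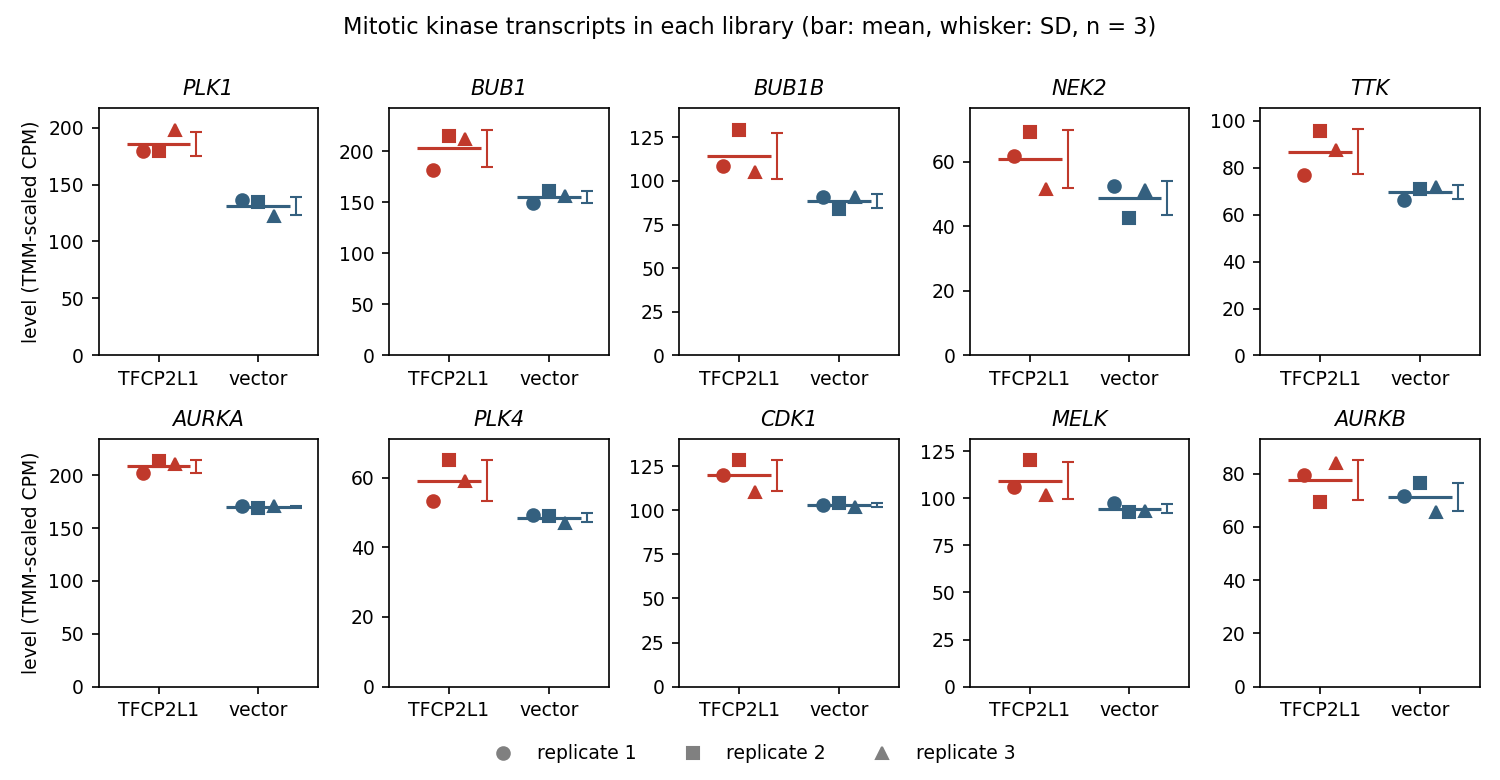
Level of each of the 10 mitotic kinases in each library (y axis, CPM after TMM scaling, starting at 0), with TFCP2L1 libraries in red and vector libraries in blue, symbols for replicates, horizontal bars for means and whiskers for the SD of 3 libraries. The groups are separate for all kinases but NEK2 and AURKB.

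PLK1, the polo-like kinase of centrosome maturation, spindle assembly and mitotic entry, moved most. It stood at 179.8, 179.5 and 198 CPM in the TFCP2L1 libraries and at 137, 134 and 122 CPM in the vector libraries. The lowest TFCP2L1 library exceeded the highest vector library by 0.39 on the log2 scale. The fold change was 1.42, a log2 fold change of 0.50 ± 0.08 (SE; 95% interval 0.34 to 0.66; edgeR adjusted p = 0.000332). The call was kept without each library in turn. PLK1 lies on chromosome 16, 23677656 to 23690367 on the plus strand of GRCh38 (ENSG00000166851.14). Genes on the opposite strand cover 11.6% (AC008870.3) and 0.882% (ERN2) of its exon bases. AC008870.3 was not in the count table, so its reads are not known. ERN2 had 4, 4 and 0 reads in the TFCP2L1 libraries and 0 in each vector library. Whether counting used the strand is not stated, so reads of PLK1 and of these genes cannot be told apart where they overlap.

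PLK4, a distant relative of PLK1, starts the duplication of centrioles. It was measured at 53.2, 65.0 and 59.0 CPM in TFCP2L1 libraries, against 49.4, 49.1 and 47.0 CPM in vector libraries, without overlap. The log2 fold change was 0.28 ± 0.09 (95% interval 0.10 to 0.47; edgeR adjusted p = 0.0449), close to the threshold. Leaving out TFCP2L1 replicate 2 (adjusted p = 0.124), vector replicate 1 (0.122), vector replicate 2 (0.0919) or vector replicate 3 (0.182) ended the call, and over all 18 alternatives the adjusted p ran from 0.0208 to 0.182. PLK4 lies on chromosome 4, 127880861 to 127899195, plus strand.

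CDK1, the cyclin-dependent kinase that starts mitosis, was not called. Its levels were 120.2, 128.5 and 110.5 CPM in TFCP2L1 libraries, against 103, 104 and 102 CPM in vector libraries, and the groups did not overlap. Its log2 fold change was 0.22 ± 0.08 (95% interval 0.06 to 0.38; edgeR adjusted p = 0.0754). Without TFCP2L1 replicate 3, the lowest of its group and the one with the highest mitochondrial share, the log2 fold change was 0.27 and the adjusted p 0.0201. Over all 18 alternatives the adjusted p ran from 0.0201 to 0.235. CDK1 lies on chromosome 10, 60778331 to 60794852, plus strand.

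The Aurora kinases differed in their call. AURKA, which matures centrosomes and builds the spindle poles, stood at 202, 214 and 211 CPM in TFCP2L1 libraries and at 170.5, 169 and 171 CPM in vector libraries. All libraries of each group were close together and the groups were separate. The log2 fold change was 0.30 ± 0.07 (95% interval 0.15 to 0.44; edgeR adjusted p = 0.00984). The call was lost without vector replicate 1 (adjusted p = 0.0579) or vector replicate 3 (0.059), at an unchanged log2 fold change of 0.30, and the adjusted p over 18 alternatives ran from 0.000869 to 0.059. AURKA lies on chromosome 20, 56369389 to 56392337, minus strand.

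AURKB, the kinase of the chromosomal passenger complex that corrects faulty attachments and acts in cytokinesis, was at 79.5, 69.2 and 84.1 CPM in TFCP2L1 libraries and at 71.5, 76.4 and 65.6 CPM in vector libraries. The groups overlapped, with TFCP2L1 replicate 2 below 2 of the 3 vector libraries. Its log2 fold change was 0.12 ± 0.09 (95% interval -0.06 to 0.31; edgeR adjusted p = 0.425), and it was called in 0 of 18 alternatives, with adjusted p from 0.14 to 0.777. The interval includes the fold change of AURKA. The ratio of AURKA to AURKB FPKM was 1.49, 1.81 and 1.47 in TFCP2L1 libraries and 1.4, 1.3 and 1.52 in vector libraries, which overlap (exact two-sided permutation p = 0.3). AURKB lies on chromosome 17, 8204733 to 8210600, minus strand.

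The checkpoint kinases BUB1, BUB1B and TTK all rose. BUB1, which marks centromeres and recruits checkpoint proteins to kinetochores, stood at 182, 215 and 212 CPM in TFCP2L1 libraries, against 149, 161 and 156 CPM in vector libraries. The log2 fold change was 0.38 ± 0.08 (95% interval 0.22 to 0.55; edgeR adjusted p = 0.00446), and the call was kept without each library in turn. BUB1 lies on chromosome 2, 110637698 to 110678114, minus strand.

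BUB1B, whose product BubR1 is part of the inhibitor of the anaphase-promoting complex, was at 109, 129 and 105 CPM in TFCP2L1 libraries and at 91.0, 84.1 and 90.8 CPM in vector libraries. TFCP2L1 replicate 2 was the highest and vector replicate 2 the lowest. Its log2 fold change was 0.37 ± 0.09 (95% interval 0.18 to 0.55; edgeR adjusted p = 0.0103), called without each library in turn. BUB1B lies on chromosome 15, 40161023 to 40221136, plus strand, and shares 10.2% of its exon bases with the readthrough gene BUB1B-PAK6, which had 0, 0 and 5 reads in TFCP2L1 libraries and 0 in each vector library.

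TTK, also called Mps1, starts checkpoint signalling at unattached kinetochores. It stood at 76.8, 95.9 and 87.6 CPM in TFCP2L1 libraries and at 66.2, 71.1 and 71.97 CPM in vector libraries, with a narrow gap between TFCP2L1 replicate 1 and the vector libraries. The log2 fold change was 0.31 ± 0.09 (95% interval 0.13 to 0.50; edgeR adjusted p = 0.0276). It was not called without TFCP2L1 replicate 2 (adjusted p = 0.0832), vector replicate 1 (0.143), vector replicate 2 (0.0542) or vector replicate 3 (0.0831), within a range of 0.00382 to 0.143 over 18 alternatives. TTK lies on chromosome 6, 80003887 to 80042527, plus strand.

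NEK2, which splits centrosomes before the spindle forms, had the widest spread. Its levels were 61.6, 69.2 and 51.4 CPM in TFCP2L1 libraries, against 52.5, 42.5 and 51.2 CPM in vector libraries, so TFCP2L1 replicate 3 fell within the vector range. Its log2 fold change of 0.32 ± 0.11 (95% interval 0.09 to 0.55; edgeR adjusted p = 0.0745) was not called. Without TFCP2L1 replicate 3 it was 0.42, with an adjusted p of 0.00276, and with no filter on low counts the adjusted p was 0.00688, in a range of 0.00276 to 0.257 over 18 alternatives. NEK2 lies on chromosome 1, 211658657 to 211675630, minus strand.

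MELK, a kinase of the AMPK-related family that peaks in mitosis, was at 106, 120.4 and 101.5 CPM in TFCP2L1 libraries and at 97.4, 93.0 and 93.2 CPM in vector libraries. The groups did not overlap, by a gap of 0.06 on the log2 scale. The log2 fold change was 0.21 ± 0.08 (95% interval 0.04 to 0.38; edgeR adjusted p = 0.104). Without TFCP2L1 replicate 3 the adjusted p was 0.0334, in a range of 0.0334 to 0.284. MELK lies on chromosome 9, 36572862 to 36677683, plus strand. For the 8 kinases whose groups did not overlap, p was 0.1 in a two-sided exact permutation test of CPM, and groups of 3 cannot give a smaller one.

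**Figure D2:**
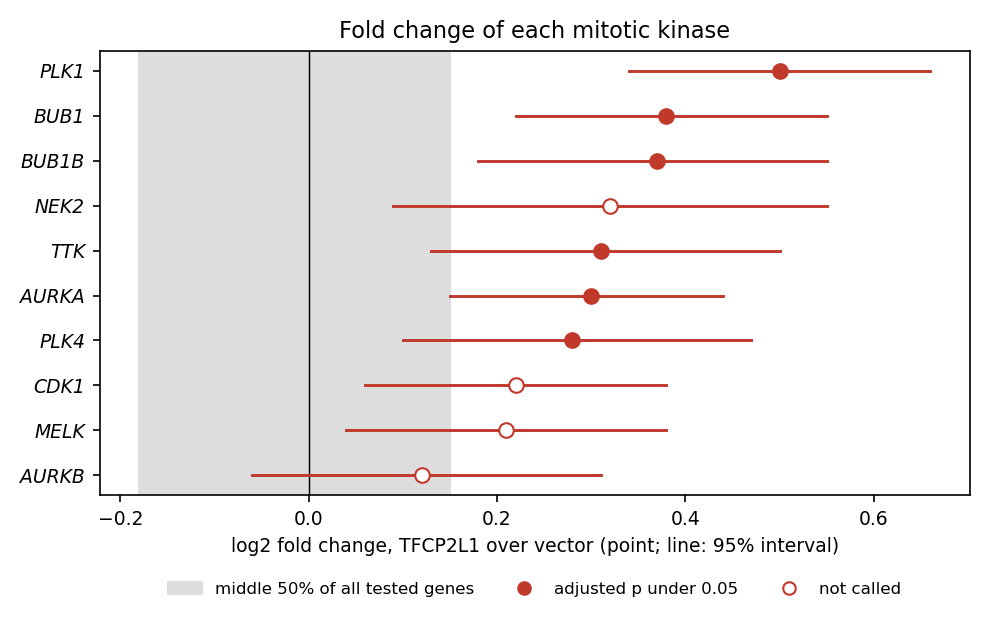
Log2 fold change of each mitotic kinase, TFCP2L1 over vector (points), with 95% intervals (lines), filled where the edgeR adjusted p was under 0.05, and the range between the quartiles of all tested genes, -0.18 to 0.15, shaded. All 10 points lie to the right of 0, and those of PLK1, BUB1 and BUB1B lie farthest right, at 0.50, 0.38 and 0.37.

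Most kinases, but not all, were highest in the same TFCP2L1 library. In TFCP2L1 cells replicate 2 was the highest library for 8 kinases, but the lowest for PLK1 and AURKB, which peaked in replicate 3. For PLK1 replicates 1 and 2 were almost equal, at 179.8 and 179.5 CPM. TFCP2L1 replicate 3 was the lowest for CDK1, BUB1B, NEK2 and MELK. In vector cells replicate 2 was the lowest for AURKA, BUB1B, NEK2 and MELK, and the highest for CDK1, AURKB and BUB1. BUB1B, NEK2 and MELK were thus lowest in the library of each group with the highest mitochondrial share, whose part in the levels was not tested. For MELK the order in vector cells was a near tie, at 92.95 CPM in replicate 2 and 93.18 CPM in replicate 3. The share of all genes lowest in both of these libraries was not computed, so nothing is read from these ranks. Without both of these libraries, an alternative chosen after the data were seen, 7 of the 10 kinases were called higher. In that fit NEK2 (log2 fold change 0.34, adjusted p = 0.0253) and CDK1 (0.28, 0.036) were called and PLK4 was not (0.29, 0.0767). The count also depended on single libraries: 9 kinases without TFCP2L1 replicate 3, 4 without TFCP2L1 replicate 2 or vector replicate 2, and 3 without vector replicate 1 or vector replicate 3. The 3 called without vector replicate 1 and without vector replicate 3 were PLK1, BUB1 and BUB1B.

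**Figure D3:**
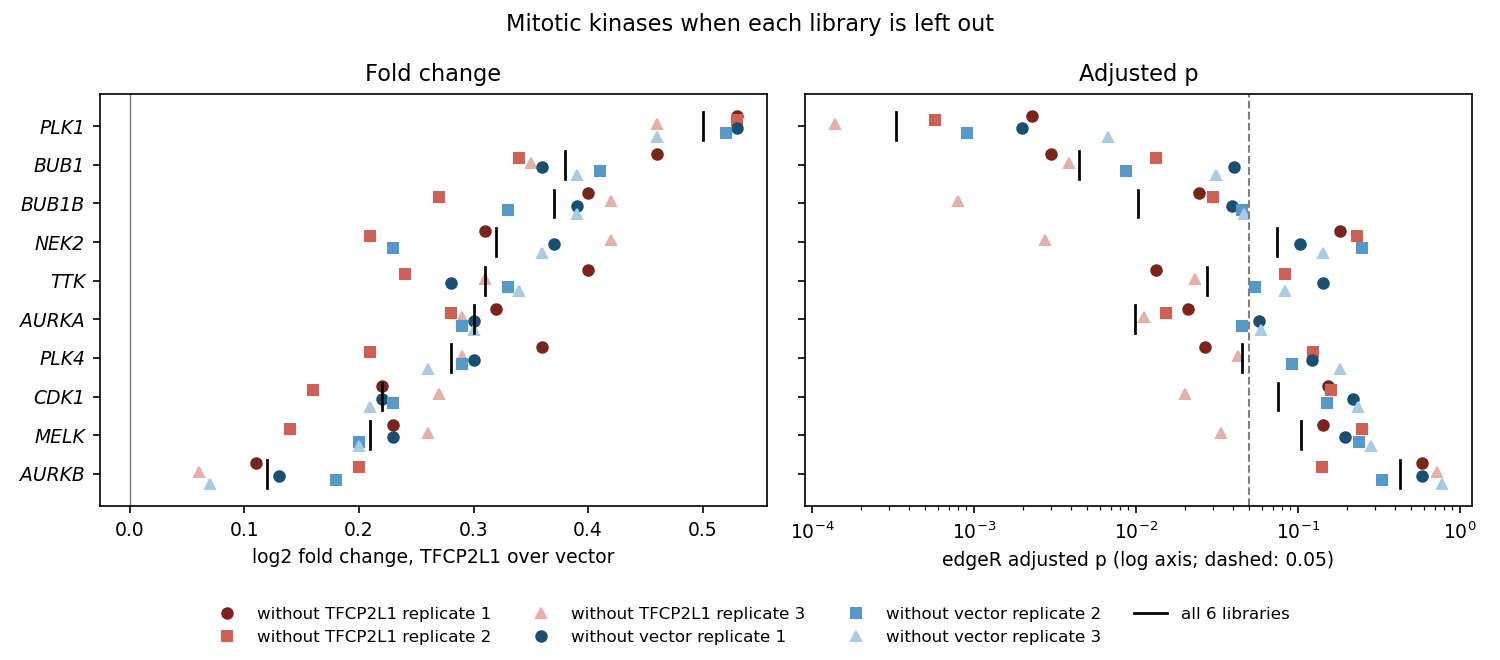
Log2 fold change (left) and edgeR adjusted p (right, log axis, dashed line at 0.05) of each mitotic kinase with all 6 libraries (black bars) and without each library in turn (symbols). PLK1, BUB1 and BUB1B stay left of the dashed line in all 6 fits, AURKB stays right of it, and the other 6 cross it.

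The coefficient of variation between replicates, on FPKM, was 2.23% to 14.8% over the 10 kinases in TFCP2L1 cells and 0.665% to 11.5% in vector cells. It was larger in TFCP2L1 cells for 9 of the 10. The share of all genes with a larger value in TFCP2L1 cells was not computed, so nothing about the kinases is read from this count. Over all genes, the chi-square per gene between replicates was 20.4, 33.2 and 42.4 for pairs of TFCP2L1 libraries. For pairs of vector libraries it was 20.7, 7.49 and 20.7. Each kinase had 1602 to 8426 reads in each library. Counting alone gives 1.11% to 2.09% in TFCP2L1 cells and 1.25% to 2.34% in vector cells.

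Levels between kinases were compared per gene length on the deposited FPKM values. The order by mean FPKM was PLK1, AURKA, BUB1, AURKB, MELK, CDK1, BUB1B, TTK, NEK2 and PLK4, and it was the same in both groups. PLK1 averaged 86.7 ± 4.41 FPKM in TFCP2L1 cells and 60.1 ± 3.44 FPKM in vector cells (SD, n = 3 each). PLK4, the least abundant, averaged 13.8 ± 1.299 FPKM in TFCP2L1 cells and 11.1 ± 0.270 FPKM in vector cells. In TFCP2L1 cells the neighbours AURKB and MELK, MELK and CDK1, and CDK1 and BUB1B overlapped between libraries. In vector cells PLK1 and AURKA did not overlap, though the lowest library of PLK1 (56.23 FPKM) was close to the highest of AURKA (56.19 FPKM), and BUB1 overlapped with AURKB.

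The share of each kinase in the summed FPKM of the 10 does not depend on how libraries are scaled. PLK1 made up 21.0%, 19.5% and 22.1% of the sum in TFCP2L1 libraries, against 19.0%, 18.7% and 17.4% in vector libraries. CDK1 made up 8.9%, 8.84% and 7.84% in TFCP2L1 libraries, against 9.03%, 9.19% and 9.23% in vector libraries. PLK1 and CDK1 were the only kinases whose share did not overlap between groups (exact two-sided permutation p = 0.1 each, the smallest possible). PLK1 had the higher share and CDK1 the lower share in TFCP2L1 cells. Shares of one sum are not independent, and the level of CDK1 itself was higher in all 3 TFCP2L1 libraries (log2 fold change 0.22). How often shares separate in other sets of genes was not computed, so nothing is read from this count. AURKB made up 11.3%, 9.16% and 11.5% in TFCP2L1 libraries and 12.1%, 12.9% and 11.4% in vector libraries, with overlap (exact p = 0.2).

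**Figure D4:**
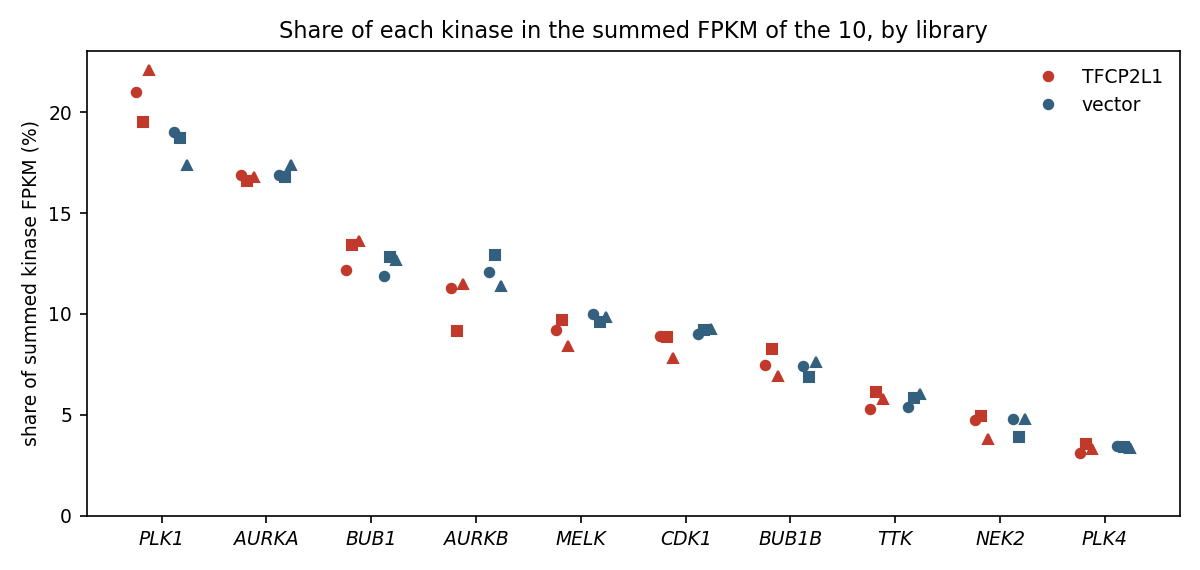
Share of each mitotic kinase in the summed FPKM of the 10 (y axis, percent, starting at 0) in each library, TFCP2L1 libraries in red and vector libraries in blue, with circles, squares and triangles for replicates 1, 2 and 3. The shares overlap between groups for 8 kinases, and those of PLK1 (higher in TFCP2L1 cells) and CDK1 (lower) do not.

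The FPKM ratio within a library was compared for 14 chosen pairs of genes. Of these ratios, 5 were higher in all 3 TFCP2L1 libraries than in all 3 vector libraries and 9 overlapped. No ratio could pass an adjusted threshold. The 5 that did not overlap had an exact permutation p of 0.1, the smallest possible, and 0.28 after adjustment over the 14, and the other 9 had larger values. The share of all gene pairs that separate was not computed, so nothing is read from this count. The 5 were CDK1 to CDKN1A, WEE1, and PLK1 to BORA, AURKB and CDK1. CDK1 to CDKN1A was 0.561 ± 0.0836 in TFCP2L1 cells and 0.312 ± 0.00236 in vector cells. CDK1 alone averaged 35.48 FPKM in TFCP2L1 cells and 29.94 FPKM in vector cells, a smaller change than that of the ratio. The ratio moves with either gene, and the level of CDKN1A is not given here, so it is not read as a gain of CDK1. PLK1 to CDK1 was 2.46 ± 0.321 in TFCP2L1 cells and 2.01 ± 0.107 in vector cells. The ratio of PLK1 to AURKB, chosen after the values were seen, was 1.97 ± 0.14 in TFCP2L1 cells and 1.51 ± 0.0633 in vector cells. CDK1 to WEE1, the kinase that inhibits it, was 4.12, 3.73 and 3.29 in TFCP2L1 libraries and 2.88, 2.95 and 2.7 in vector libraries. CDK1 to PKMYT1, the other inhibitory kinase, overlapped, at 2.87, 4.1 and 2.31 in TFCP2L1 libraries and 3.27, 2.69 and 2.99 in vector libraries (exact permutation p = 0.9). PLK1 to BORA, its activating cofactor with Aurora A, was 10.1, 9.83 and 9.59 in TFCP2L1 libraries and 9.03, 7.94 and 8.37 in vector libraries. AURKA to its activator TPX2 was 0.721 ± 0.0256 in TFCP2L1 cells and 0.738 ± 0.012 in vector cells, and BUB1 to BUB1B was 1.74 ± 0.196 and 1.71 ± 0.137, both with overlap. PLK1 to MKI67 also overlapped, at 1.36 ± 0.116 in TFCP2L1 cells and 1.42 ± 0.183 in vector cells (exact permutation p = 0.7).

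The promoters of 8 of the 10 kinases were in the RefSeq promoter table (GRCh38.p14), and AURKA and TTK were not matched. They were searched on both strands for TTTGAA, the cell cycle genes homology region through which MuvB complexes bind, and CCAAT, the box bound by NF-Y, in the most upstream window of each gene, from 250 bases before to 50 bases after the start. TTTGAA was in 4 of the 8 windows (CDK1, PLK1, PLK4 and BUB1B) and in 15.5% of 27305 genes. CCAAT was in 5 of the 8 (CDK1, PLK1, AURKB, BUB1 and NEK2) and in 35.7% of all genes. Both were in 2 of the 8, PLK1 and CDK1, and in 6.13% of all genes. MELK had neither. The 200 bases before the start are given for PLK1, which rose most (chr16:23678689-23678888, plus strand), for BUB1 (chr2:110678064-110678263, minus strand) and BUB1B (chr15:40160869-40161068, plus strand), which also rose without each library, and for CDK1 (chr10:60778131-60778330, plus strand) and AURKB (chr17:8210250-8210449, minus strand), which were not called. They read 5′ to 3′ on the gene's strand, with TTTGAA and CCAAT, or ATTGG where CCAAT is on the opposite strand, in capitals.
PLK1: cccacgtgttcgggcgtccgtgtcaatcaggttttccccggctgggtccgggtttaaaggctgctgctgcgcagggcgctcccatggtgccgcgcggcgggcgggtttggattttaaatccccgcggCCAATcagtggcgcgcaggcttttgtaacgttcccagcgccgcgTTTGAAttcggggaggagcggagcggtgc
BUB1: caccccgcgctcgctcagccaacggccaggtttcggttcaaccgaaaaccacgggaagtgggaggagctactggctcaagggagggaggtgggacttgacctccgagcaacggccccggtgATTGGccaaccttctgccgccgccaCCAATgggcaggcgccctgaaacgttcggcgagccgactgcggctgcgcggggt
BUB1B: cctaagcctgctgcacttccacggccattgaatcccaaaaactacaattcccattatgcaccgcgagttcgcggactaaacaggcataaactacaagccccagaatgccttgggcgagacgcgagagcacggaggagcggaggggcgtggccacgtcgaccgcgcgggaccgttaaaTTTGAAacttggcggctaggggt
CDK1: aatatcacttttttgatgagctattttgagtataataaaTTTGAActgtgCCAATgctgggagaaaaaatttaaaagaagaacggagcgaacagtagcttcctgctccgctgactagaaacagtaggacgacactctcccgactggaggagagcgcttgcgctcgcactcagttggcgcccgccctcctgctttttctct
AURKB: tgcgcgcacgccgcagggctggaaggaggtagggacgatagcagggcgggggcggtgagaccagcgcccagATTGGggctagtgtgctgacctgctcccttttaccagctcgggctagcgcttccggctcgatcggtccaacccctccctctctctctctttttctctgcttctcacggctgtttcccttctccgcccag
In PLK1 the CCAAT box spans positions -73 to -69 and TTTGAA positions -29 to -24, counted from the base before the start as -1. In BUB1B TTTGAA spans -23 to -18. In BUB1 CCAAT stands at -54 to -50 and, on the opposite strand, at -79 to -75. In CDK1 both lie farther from the start, at -161 to -156 and -150 to -146. A later start of the same gene has TTTGAA at -69 to -64 and -13 to -8, and on the opposite strand at 10 to 15. This later start also has CCAAT on the opposite strand, at -78 to -74 and -46 to -42. Later starts of PLK4 and AURKB have CCAAT on the opposite strand, at -86 to -82 and -153 to -149. A match of letters does not show a bound site, and called and uncalled kinases both held each of these motifs.

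Transcripts of regulators of mitotic genes were next examined, and whether these act on the promoters above was not tested. FOXM1 rose to 209, 213 and 238 CPM in TFCP2L1 libraries, against 154, 162 and 158 CPM in vector libraries (log2 fold change 0.48 ± 0.07, edgeR adjusted p = 0.000437), a call kept without each library. The 16 genes examined were those of MuvB, MYBL2, FOXM1 and NF-Y, with E2F4, E2F5, TFDP1, TFDP2, RBL1 and RBL2. Of the 16, 2 rose and 0 fell, beside 4.63% of all genes higher and 6.94% lower. Their median log2 fold change was 0.17. The other was RBL1, a pocket protein that represses cell cycle genes in the DREAM complex, with a log2 fold change of 0.30 ± 0.09 (adjusted p = 0.0437). The RBL1 call was lost without TFCP2L1 replicate 1 (0.0945) or replicate 3 (0.0937) or vector replicate 1 (0.145), replicate 2 (0.11) or replicate 3 (0.152). MYBL2, for comparison, was at 172 ± 3.21 CPM in TFCP2L1 cells and 151 ± 4.94 CPM in vector cells (adjusted p = 0.0903). At an unadjusted p under 0.05, 8 of the 16 were higher and 0 lower (11.8% and 13.3% of all genes), and DESeq2 called 3 higher and 0 lower (5.97% and 7.81% of all genes). These shares of all genes apply to the unadjusted and DESeq2 counts of each group that follows.

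Among the subunits of the CDK1 complex, both B-type cyclins rose. CCNB2 stood at 60.7, 62.1 and 67.5 CPM in TFCP2L1 libraries and at 41.3, 43.1 and 40.3 CPM in vector libraries, a log2 fold change of 0.61 ± 0.08 (edgeR adjusted p = 9.57e-05), larger than that of any of the 10 kinases and kept without each library. CCNB1 had a log2 fold change of 0.36 ± 0.08 (adjusted p = 0.01), lost without TFCP2L1 replicate 1 (0.0525), vector replicate 2 (0.0556) or vector replicate 3 (0.0579). Of the 5 cyclin and Cks genes 2 rose and 0 fell, beside 4.63% of all genes higher and 6.94% lower, with a median log2 fold change of 0.20 (3 higher and 0 lower at an unadjusted p under 0.05; 2 and 0 by DESeq2). Of the 5 genes that set the phosphorylation of CDK1, 0 rose or fell, where 11.6% of all genes were called (1 higher and 0 lower unadjusted, 0 and 0 by DESeq2). With so few genes, nothing about this group is read from the count. CDC25C, an activating phosphatase, was at 12.8 ± 0.924 CPM in TFCP2L1 cells and 10.3 ± 0.252 CPM in vector cells (adjusted p = 0.113), and WEE1 at 40.7 ± 3.57 and 45.6 ± 1.65 CPM (0.277).

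Activators of Aurora A and PLK1 differed in their calls. TPX2, which activates Aurora A on the spindle, stood at 319, 360.2 and 334 CPM in TFCP2L1 libraries and at 265, 271 and 269.8 CPM in vector libraries (log2 fold change 0.33 ± 0.07, edgeR adjusted p = 0.00679, and 0.0532 without vector replicate 1). AJUBA, a LIM protein of centrosomes and cell junctions, fell to 67.0, 62.6 and 61.3 CPM in TFCP2L1 libraries, against 89.5, 87.6 and 93.9 CPM in vector libraries (-0.51 ± 0.08, adjusted p = 0.000292, kept without each library). BORA (0.28 ± 0.10, edgeR adjusted p = 0.0972) and CEP192 (0.16 ± 0.09, 0.3) were not called. Of the 4 activators 1 rose and 1 fell, beside 4.63% of all genes higher and 6.94% lower. Their median log2 fold change was 0.22 (2 higher and 1 lower unadjusted, 1 and 1 by DESeq2).

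Partners of AURKB in the chromosomal passenger complex and the genes that place it rose in 3 of 5 cases and fell in 0, beside 4.63% of all genes higher and 6.94% lower, with a median log2 fold change of 0.25 (4 higher and 0 lower unadjusted; 3 and 0 by DESeq2). They were SGO1, the protector of centromeric cohesion (0.39 ± 0.11, edgeR adjusted p = 0.0318), INCENP, the scaffold (0.29 ± 0.09, 0.0462), and CDCA8 (0.25 ± 0.08, 0.0415). All of these calls were lost without vector replicate 1 (0.179 for SGO1, 0.236 for INCENP and 0.21 for CDCA8) and without vector replicate 3 (0.0986, 0.121 and 0.133). SGO1 was also lost without TFCP2L1 replicate 2 (0.0503) or 3 (0.0687), INCENP without TFCP2L1 replicate 1 (0.126) or 3 (0.102), and CDCA8 without TFCP2L1 replicate 1 (0.0764) or 3 (0.0762) or vector replicate 2 (0.0681). The ratio of AURKB to INCENP FPKM was 2.34, 2.31 and 2.29 in TFCP2L1 libraries and 2.86, 2.61 and 2.32 in vector libraries, with overlap.

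Of 7 centriole duplication genes that act with PLK4, 1 rose and 0 fell, beside 4.63% of all genes higher and 6.94% lower, with a median log2 fold change of 0.29 (6 higher and 1 lower unadjusted; 2 and 0 by DESeq2). CEP135 was at 27.6 ± 3.55 CPM in TFCP2L1 cells and 21.1 ± 1.62 CPM in vector cells (0.39 ± 0.11, edgeR adjusted p = 0.0353), lost without TFCP2L1 replicate 2 (0.09) or 3 (0.0706) or vector replicate 1 (0.162), 2 (0.0825) or 3 (0.0636). SASS6, which forms the centriole cartwheel, was at 28.0 ± 0.808 and 22.8 ± 1.23 CPM in TFCP2L1 and vector cells (adjusted p = 0.0539).

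Spindle checkpoint genes without kinase activity rose in 3 of 10 cases and fell in 0, beside 4.63% of all genes higher and 6.94% lower, with a median log2 fold change of 0.21 (5 higher and 1 lower unadjusted; 3 and 0 by DESeq2). TRIP13, an ATPase that disassembles checkpoint complexes, had a log2 fold change of 0.37 ± 0.08 (edgeR adjusted p = 0.00644, and 0.0531 without vector replicate 3). KNTC1 of the Rod complex had 0.36 ± 0.09 (0.0203), lost without TFCP2L1 replicate 1 (0.0666), vector replicate 1 (0.128) or vector replicate 3 (0.0716). KNL1, the kinetochore platform for BUB1 and BubR1, had 0.31 ± 0.08 (0.0163), lost without vector replicate 1 (0.101) or 3 (0.0613). The list's count was 6 without TFCP2L1 replicate 3, and 1 and 0 without vector replicates 1 and 3.

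Of 14 genes of the anaphase-promoting complex and mitotic exit, 2 rose and 0 fell, beside 4.63% of all genes higher and 6.94% lower, with a median log2 fold change of 0.15 (4 higher and 0 lower unadjusted; 3 and 0 by DESeq2). FBXO5, an inhibitor of the complex, was at 54.9 ± 4.79 CPM in TFCP2L1 cells and 41.9 ± 1.85 CPM in vector cells (0.39 ± 0.09, edgeR adjusted p = 0.00802, and 0.0586 without vector replicate 1). CDC20, its mitotic activator and the target of the checkpoint, was at 169 ± 18.8 and 135 ± 5.16 CPM in TFCP2L1 and vector cells (0.33 ± 0.08, 0.0181), lost without TFCP2L1 replicate 1 (0.0606), vector replicate 1 (0.0765) or vector replicate 3 (0.107).

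Of 19 genes of phosphatases and of their regulators, among them ENSA and ARPP19, 2 rose, 1 fell and 16 were not called. Over all genes, 4.63% were higher and 6.94% lower. The counts are near those of all genes, and nothing about phosphatases is read from them. Their median log2 fold change was 0.06 (4 higher and 2 lower unadjusted; 3 and 1 by DESeq2). PPP2R5D, a regulatory subunit of PP2A, had a log2 fold change of 0.32 ± 0.08 (edgeR adjusted p = 0.0121), lost without vector replicate 1 (0.0738) or 2 (0.0621). PPP2R5B, another, fell by 0.36 on the log2 scale (0.0365), lost without every library but TFCP2L1 replicate 3, with up to 0.119. PPP1CC, a catalytic subunit of PP1, had 0.23 ± 0.07 (0.0473), a call kept only without TFCP2L1 replicate 1 and lost without each other library, with up to 0.189.

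Of 14 tested relatives of these kinases among the Aurora, polo-like, NEK and CDK genes, 0 rose and 2 fell, beside 4.63% of all genes higher and 6.94% lower, and nothing about the families is read from these counts. Their median log2 fold change was -0.03 (2 higher and 2 lower unadjusted; 0 and 2 by DESeq2). Both that fell were polo-like kinases of stress responses. PLK3 stood at 14.7, 14.5 and 15.4 CPM in TFCP2L1 libraries and at 20.5, 20.0 and 22.9 CPM in vector libraries (-0.51 ± 0.11, edgeR adjusted p = 0.00449, kept without each library). PLK2 stood at 249.5, 261 and 243 CPM in TFCP2L1 libraries and at 308, 302.5 and 309 CPM in vector libraries (-0.29 ± 0.07, 0.0127), lost without vector replicate 1 (0.0731) or 3 (0.081). AURKC, the germline Aurora kinase, was near 0.188 CPM in TFCP2L1 cells and 0.300 CPM in vector cells. NEK6, NEK7 and NEK9, which do act in mitosis, were not called either, at log2 fold changes of 0.20, -0.05 and -0.00.

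Of 5 other kinases of mitosis, 2 rose and 0 fell, beside 4.63% of all genes higher and 6.94% lower, with a median log2 fold change of 0.22 (3 higher and 0 lower unadjusted; 2 and 0 by DESeq2). PBK, a mitotic kinase also called TOPK, stood at 83.0, 87.2 and 91.2 CPM in TFCP2L1 libraries and at 61.8, 64.7 and 60.3 CPM in vector libraries (0.49 ± 0.08, edgeR adjusted p = 0.000449, kept without each library). CIT, the citron kinase of cytokinesis, had a log2 fold change of 0.33 ± 0.07 (0.00824, and 0.0766 without vector replicate 1).

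**Figure D5:**
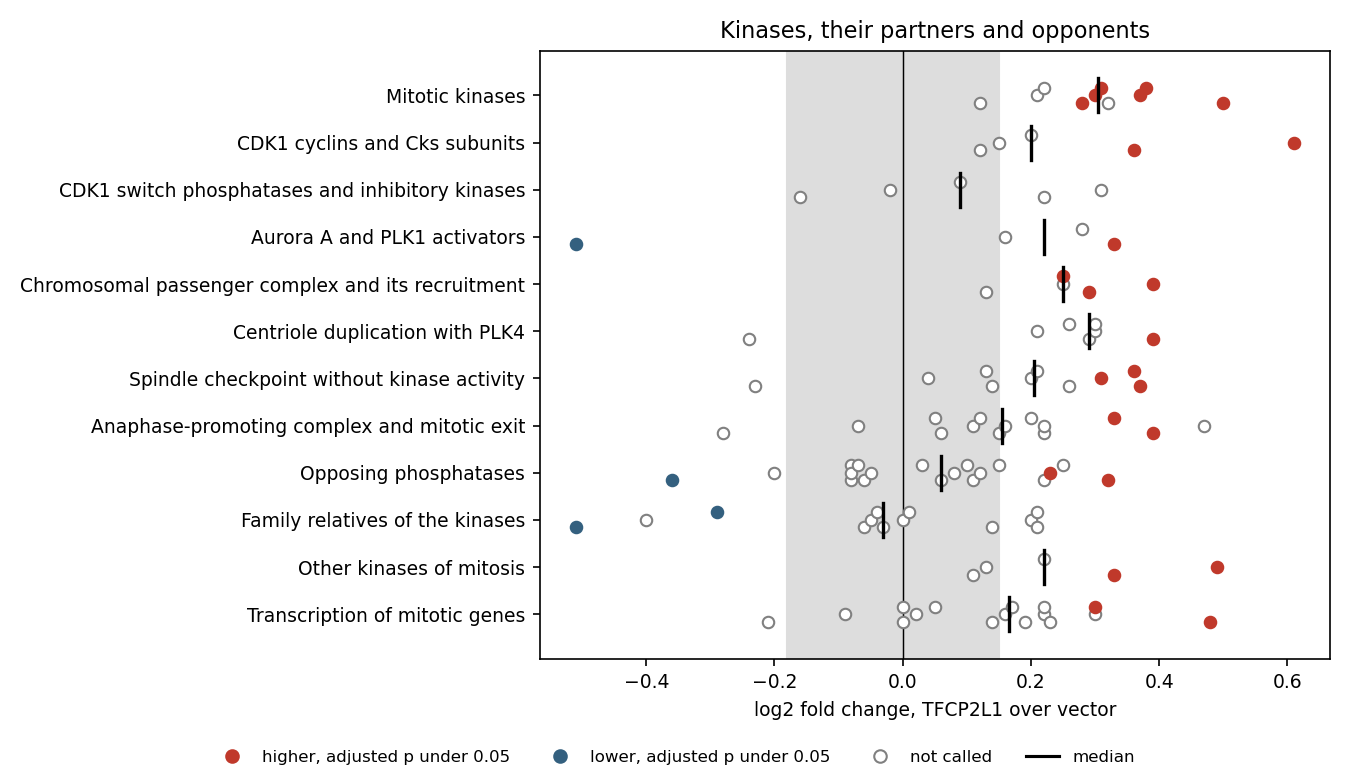
Log2 fold change, TFCP2L1 over vector, of the 10 mitotic kinases (top) and of the tested genes of the related groups (points; red, called higher; blue, called lower; white, not called), with medians as black bars and the range between the quartiles of all tested genes shaded; AURKC, at -0.66, is not drawn. The median is 0.31 for the kinases and runs from -0.03 (family relatives) to 0.29 (centriole duplication) for the other groups.

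The genes most like the kinases were sought among 9418 other genes with a mean of at least 10 CPM, by the root mean square difference between log2 CPM centred on each gene's mean and the median profile of the 10 kinases over the 6 libraries. The profile was 0.10, 0.26 and 0.15 in the TFCP2L1 libraries and -0.13, -0.13 and -0.14 in the vector libraries. The closest was TPX2, at 0.026, followed by ANLN (0.027), MTO1 (0.028), MID1 (0.030), CCDC14 (0.034) and NAT10 (0.035). Of the kinases themselves AURKA was the closest to the profile, at 0.035, and AURKB (0.168), NEK2 (0.143) and PLK1 (0.132) the farthest.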

How the data were processed

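The authors deposited raw read counts per gene and FPKM values for 6 libraries. Per the submitters' processing notes, fastp, HISAT2 and HTSeq were used, without versions, with build GRCh38.p13. Whether counting used the strand is not stated in the labels or files. The deposited FPKM values equal the count divided by 1 length per gene and the library total, within 0.00012%, so they are no independent measurement. Columns were matched to samples by group and replicate number.

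Counts were tested with edgeR 4.0.16 (R 4.3.3): filterByExpr, TMM scaling, robust quasi-likelihood F-test, two-sided, all 6 libraries, Benjamini-Hochberg adjustment over 14431 genes, called under 0.05. Standard errors were obtained as the absolute log2 fold change over the root of the F statistic. The biological coefficient of variation was 10.8%. Replicates differed by more than sampling noise (chi-square per gene 7.49 to 42.4), so none was a copy.

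Kinases and related lists were chosen with earlier results of these data known. Of each list, up to 4 called genes with the largest change are given with values, and lists with fewer than 2 calls give the 2 genes of lowest p. NEK6, NEK7, NEK9, AURKC, MYBL2, BORA and CEP192 were added after their values were seen. Alternatives used other scalings and filters, DESeq2 1.42.0, limma 3.58.1 (voom, and log2 of FPKM plus 1 or 0.1), a replicate block, and leaving out libraries or mitochondrially encoded genes. Gene positions and overlaps come from GENCODE on GRCh38.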

Additional observations from a re-analysis of the deposited data

How the results depend on the processing

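Over 18 alternatives, the log2 fold change of each of the 10 kinases stayed positive. Of these values 150 kept their side of the threshold, 23 lost a call, 7 gained one and 0 reversed. PLK1 and BUB1 were called in all 18, BUB1B in 16 and AURKB in 0. The count of kinases higher was 6, with 3 to 9 without single libraries, 2 in the fit with a replicate block and 3 in limma on log2(FPKM + 1) with no filter, and the count lower was 0 throughout. Over all genes, 668 were higher and 1002 lower. Without single libraries 298 to 766 were higher and 621 to 1106 lower, and limma on log2(FPKM + 1) with no filter gave 314 and 475. The causes were not tested. With the replicate block 328 were higher and 649 lower, but same-numbered libraries did not deviate together (correlations 0.07, -0.16 and -0.12 for numbers 1, 2 and 3), and only TFCP2L1 replicate 1 correlated best with its own number, so the number is not taken as a pairing. Without mitochondrially encoded genes 6 kinases were called higher.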
